A study of Homo sapiens with 8 samples.

Results

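The genes described here are 39 human genes that control KCNQ potassium channels through Gq-coupled receptors, the membrane lipid PIP2 and calmodulin. They were chosen by name: 5 muscarinic receptors, 4 Gq family alpha subunits, 6 phospholipases C, 4 phosphatidylinositol 4-kinases, 6 phosphatidylinositol phosphate kinases, 3 IP3 receptors, 4 protein kinases C, 2 RGS proteins, 2 calmodulin genes and 3 anchors or partners of the channel. Of the 34290 genes with a count in the series, 38 are on this list. CHRM1 had no count in any library. The 31 listed genes with enough counts were tested among 19280 genes.

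KCNQ3 is a subunit of the channels that carry the neuronal M-current, which open only while PIP2 is bound to them. Muscarinic receptors coupled to Gq activate phospholipase C, which cleaves PIP2 into IP3 and diacylglycerol, and the M-current is suppressed until lipid kinases rebuild PIP2. IP3 opens calcium channels of the endoplasmic reticulum, diacylglycerol activates protein kinase C held at the channel by AKAP5 (AKAP79/150), calmodulin sits on the channel's C-terminal tail, and ankyrin-G holds the channel at the axon initial segment.

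The overexpression group was HEK293T, an established kidney-derived human line with the SV40 large T antigen (clone 293T/17), transfected by FuGENE HD with the KCNQ3 open reading frame in tagged form, and the controls were normal HEK293T. Each group had 4 libraries of total RNA, and RNA was taken 48 h after transfection. The labels attach one transfection text to all 8 samples, and do not say whether control cells were treated with reagent or with a plasmid lacking KCNQ3. Nothing states that the libraries of a group came from separate cultures. The spread that p-values measure here is that between these samples alone and may be technical.

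Total estimated counts ran from 24738542 to 27542588 in KCNQ3 overexpression libraries and from 24020097 to 30734915 in control libraries. KCNQ3 checked the labels: it had 15283, 15874, 19709 and 18603 counts in overexpression replicates 1 to 4, against 4, 5, 0 and 2 in control replicates 1 to 4 (log2 fold change 12.63 ± 0.25 SE, edgeR quasi-likelihood test with Benjamini-Hochberg adjustment, adjusted p = 6.46e-07). All 9 marker genes of HEK293-type cells had counts, and their summed TPM (a level scaled by transcript length) was 728 to 844 in overexpression libraries and 758 to 968 in control libraries. Of the markers of other cells, 5 of 5 for neurons summed to 12.3 to 15.3 TPM in overexpression libraries and 14.6 to 18.8 in controls. Of the fibroblast markers, 4 of 6 had counts and summed to 4.22 to 6.65 TPM in overexpression libraries and 5.84 to 7.68 in controls, led by COL1A1 with 315 to 464 counts in overexpression libraries and 349 to 485 in controls, while COL1A2 and DCN were at 0 in all libraries. Of the blood markers, 2 of 5 had counts and summed to 0.759 to 1.34 TPM in overexpression libraries and 0.499 to 1.32 in controls, and PTPRC, CD3E and HBB were at 0 in all libraries. Of the 17 markers that could be tested, 0 passed edgeR's test and 4 had an unadjusted p under 0.05.

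Several listed genes are related in sequence, and the coding starts of the pairs whose levels are compared below show how far their reads can be told apart. The lines give bases 1 to 90 of the coding sequence, 5′ to 3′, from GENCODE release 29 transcripts (GRCh38), with the bases that differ within a pair in capitals.
CALM2-201: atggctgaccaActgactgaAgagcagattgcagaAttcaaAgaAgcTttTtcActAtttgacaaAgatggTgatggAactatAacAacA
CALM3-201: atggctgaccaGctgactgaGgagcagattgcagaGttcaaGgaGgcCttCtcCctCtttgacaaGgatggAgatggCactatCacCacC
GNAQ-201: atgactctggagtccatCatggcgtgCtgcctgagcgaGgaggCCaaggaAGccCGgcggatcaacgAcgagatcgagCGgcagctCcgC
GNA11-201: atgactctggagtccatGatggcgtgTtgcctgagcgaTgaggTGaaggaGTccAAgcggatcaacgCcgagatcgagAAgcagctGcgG

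CALM2-201 lies on chromosome 2 and CALM3-201 on chromosome 19. Their coding sequences were each 450 bases long and differed at 82 bases (81.8% identity), 79 of them at the last base of a codon. GNAQ-201 (chromosome 9) and GNA11-201 (chromosome 19) were each 1080 bases long and differed at 232 bases (78.5% identity). The longest stretch the transcripts shared without a mismatch was 17 bases for the calmodulin genes and 26 bases for the Gq subunits.

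In HEK293T overexpressing KCNQ3, no gene of the Gq, PIP2 and calmodulin list passed the test, and most had RNA levels within a narrow interval around the control level. Among the 4 genes whose groups were clear of each other, GNAQ and PLCB1 had the lowest relative levels, at 87.5% and 87.3% of control. GNA11 and PLCB3, of the same families, overlapped between groups, at 98.3% and 105% of control. PLCB4 and PLCD1 also overlapped, but were at 88.9% and 86.6% of control. Of the 6 phospholipases, 5 had log2 fold changes below 0, so a lower level was not particular to PLCB1. With edgeR's quasi-likelihood test adjusted over all genes, 0 of 31 were called, where 0.301% of all genes tested were called (0.109% higher and 0.192% lower). At an unadjusted p under 0.05 there were 9 (29%, against 19.4% of all genes, 9.92% higher and 9.46% lower): PIP4K2C was higher in overexpression cells, and GNAQ, PLCB1, PLCB4, PLCD1, PI4K2A, PRKCA, ANK3 and BACE1 were lower. The TMM-scaled CPM (counts scaled to a common library total) of the groups did not overlap for 4 genes (12.9%, against 11.6% of all genes, 5.84% higher and 5.77% lower), GNAQ, PLCB1, PRKCA and BACE1, all lower in overexpression libraries. DESeq2's Wald test, which called 9.9% of the genes to which it gave an adjusted p (4.41% higher and 5.49% lower), called those same 4 (14.3% of the 28 given one). It gave no adjusted p to PLCB2, PIP5K1B and PRKCB.

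The log2 fold changes of the 31 ran from -0.33 for CALM2 to 0.26 for AKAP5, with 10 above 0 and 21 below. Their median was -0.04, against 0.01 over all genes tested, and their median size without sign was 0.08, against 0.10. For 23 of the 31, the 95% interval of the fold change lay within 1.25-fold in either direction, and for 28 it lay within 1.5-fold. The intervals of PLCB2, CALM2 and AKAP5 reached beyond 1.5-fold. In bulk RNA, fewer cells expressing a gene and less RNA per cell cannot be told apart.

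**Figure D1:**
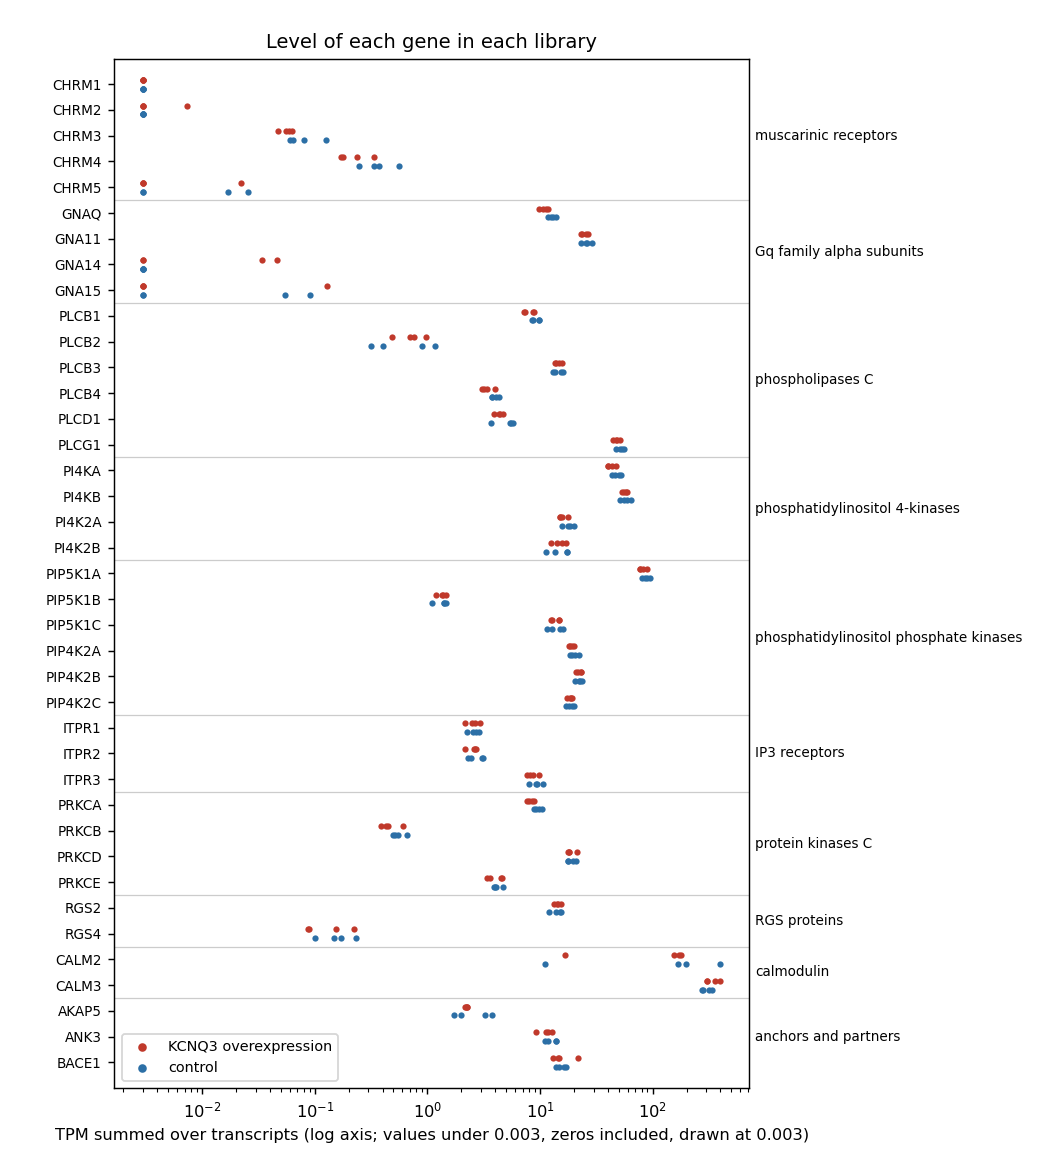
Level of each of the 39 genes in each library, in TPM on a log axis, with KCNQ3 overexpression above control for each gene and levels under 0.003 TPM drawn at 0.003. The points of the groups lie together for nearly every gene, the muscarinic receptors sit at the low end, and CALM2 has 1 library of each group far below the others.

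**Figure D2:**
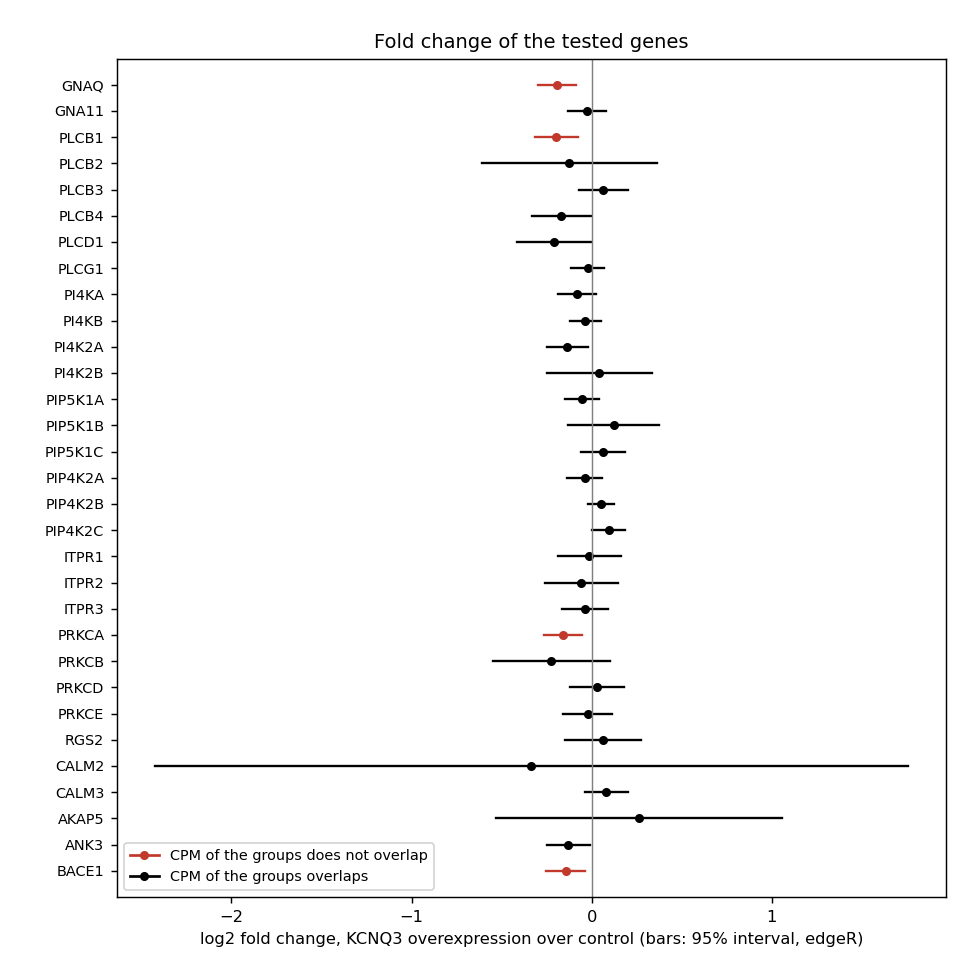
Log2 fold change of the 31 tested genes, KCNQ3 overexpression over control, with 95% intervals from edgeR; red marks the 4 genes whose CPM did not overlap between groups. Most intervals are narrow and lie close to 0, and those of CALM2 and AKAP5 are the widest.

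The receptors that start this pathway in neurons were near the detection limit. CHRM1, the muscarinic receptor best known for suppressing the M-current, had 0 counts in all 8 libraries, and CHRM2, which couples mainly to Gi, had 1 count in overexpression cells and 0 in control cells. A count of 0 over a group allows up to 3 counts. CHRM3, a Gq-coupled receptor, had 7, 8, 10 and 8 counts in overexpression replicates 1 to 4, against 13, 15, 9 and 9 in control replicates 1 to 4. The counts were low in both groups and overlapped. The depth-scaled ratio of the sums, 33 in overexpression cells and 46 in controls, was 0.75, with an exact 95% interval of 0.464 to 1.2 that covers counting error only.

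CHRM4, a Gi-coupled receptor, had 6, 5, 9 and 4 counts in overexpression replicates, against 16, 6, 9 and 9 in control replicates (ratio 0.627, interval 0.362 to 1.07). CHRM5, which is Gq-coupled, summed to 2 counts in overexpression cells and 5 in controls (ratio 0.418, interval 0.0398 to 2.55). All 5 receptors together reached 0.294 ± 0.072 TPM in overexpression cells and 0.473 ± 0.13 TPM in control cells (SD, n = 4 each), and CHRM4 made up 77.4% of the sum in overexpression cells and 79.3% in controls. None of the 5 had enough counts to be tested, and a difference was not detectable at this depth.

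Of the G protein subunits that relay the receptor signal, GNA11 and GNAQ were present and GNA14 and GNA15, known mostly from epithelial and blood cells, were almost absent. GNA14 had 4 counts in overexpression cells and 0 in controls, and GNA15 had 5 in overexpression cells and 6 in controls (ratio 0.871, interval 0.210 to 3.42). GNAQ (ENSG00000156052, chromosome 9, 77716087 to 78031458, GRCh38) had 49.0, 43.8, 49.8 and 46.9 CPM in overexpression replicates 1 to 4, against 55.7, 54.9, 53.1 and 52.9 CPM in control replicates 1 to 4. Every overexpression library was below every control library. The level in overexpression cells was 87.5% of the control level (95% interval 81.4% to 94.1%), a log2 fold change of -0.19 ± 0.05 (SE), which missed the threshold in edgeR's quasi-likelihood test (adjusted p = 0.0859) and passed it in DESeq2 (adjusted p = 0.00358). The sign of this difference was the same under all 16 alternative settings. These refit the same libraries, and leaving out 1 library could hardly change the sign where groups do not overlap.

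GNA11 (ENSG00000088256, chromosome 19, 3094410 to 3124004) overlapped between groups, at 66.4, 62.6, 66.9 and 62.2 CPM in overexpression replicates and 70.6, 65.5, 64.4 and 62.2 CPM in control replicates. Its log2 fold change was -0.03 ± 0.05, with a level of 98.3% of control (91.3% to 106%). On the TPM scale GNA11 was the more abundant of the pair, at 24.8 ± 1.56 TPM in overexpression cells and 25.9 ± 2.40 TPM in controls. GNAQ was at 10.9 ± 0.923 TPM in overexpression cells and 12.9 ± 0.801 TPM in controls, so that it made up 30.4% ± 0.68 of the Gq family's TPM in overexpression cells and 33.2% ± 0.71 in controls. The processed pseudogene GNAQP1, which shares a stretch of 134 bases with GNAQ, was at 1.48 ± 0.22 CPM in overexpression cells and 1.55 ± 0.09 CPM in controls.

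**Figure D3:**
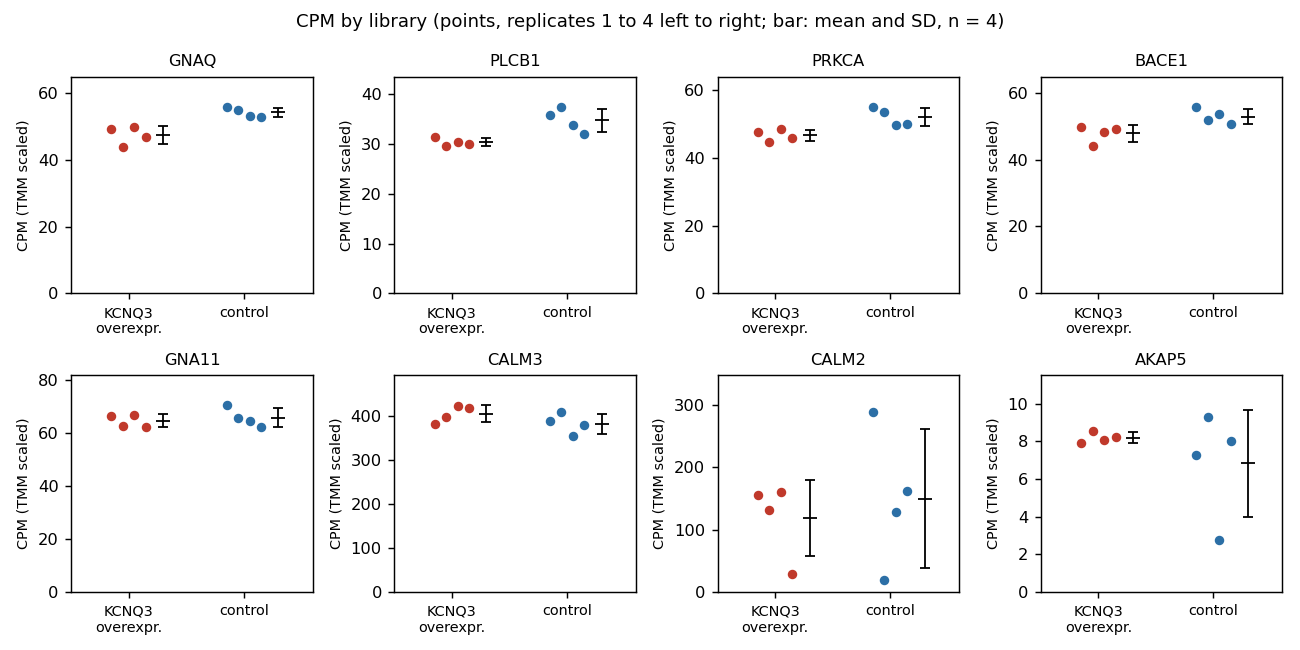
TMM-scaled CPM of 8 of the genes in each library (points, replicates 1 to 4 from left to right) with mean and SD (n = 4), KCNQ3 overexpression in red and control in blue. In the upper row the red points all lie below the blue ones; in the lower row they overlap, with 1 library of each group low for CALM2 and 1 control library low for AKAP5.

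Among the enzymes that cleave PIP2, PLCG1, the isoform driven by receptor tyrosine kinases, was the most abundant, and PLCB3 and PLCB1 led among the beta isoforms that Gq activates. PLCG1 made up 60.6% of the TPM of the 6 phospholipases in overexpression cells and 60.7% in controls. It stood at 156, 149, 158 and 155 CPM in overexpression replicates and at 162, 151, 163 and 153 CPM in control replicates. The groups overlapped, with control replicates 1 and 3 above every overexpression library (log2 fold change -0.02 ± 0.04).

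PLCB1 (ENSG00000182621, chromosome 20, 8077251 to 8968360), a main Gq effector in brain, had 31.4, 29.5, 30.4 and 29.9 CPM in overexpression replicates 1 to 4, against 35.7, 37.3, 33.9 and 31.9 CPM in control replicates 1 to 4. The groups did not overlap, although control replicate 4 lay close to overexpression replicate 1. The level was 87.3% of control (80.4% to 94.8%), with a log2 fold change of -0.20 ± 0.05. The adjusted p was 0.104 in edgeR and 0.0158 in DESeq2. The sign was the same under all 16 alternative settings, with the limit given for GNAQ.

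PLCB3, the beta isoform of many non-neuronal cells, had 36.8 to 43.0 CPM in overexpression libraries and 34.2 to 39.2 in controls (log2 fold change 0.06 ± 0.06). PLCB4, a beta isoform known from retina and cerebellum, averaged 12.4 ± 1.21 CPM in overexpression cells and 13.9 ± 0.550 CPM in controls (-0.17 ± 0.07, edgeR adjusted p = 0.247). PLCD1, a calcium-activated isoform, averaged 7.41 ± 0.549 CPM in overexpression cells and 8.55 ± 0.912 CPM in controls (-0.21 ± 0.09, adjusted p = 0.254), and with protein-coding transcripts alone its log2 fold change was 0.18. Both missed the threshold and their groups overlapped. PLCB2, a blood cell isoform, was near 1 CPM, at 0.709 to 1.33 CPM in overexpression libraries and 0.908 to 1.23 in controls.

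The groups overlapped for all 10 kinases that rebuild PIP2. By mean TPM in controls, PIP5K1A, PI4KB and PI4KA took places 3, 4 and 6 among the 31 tested genes, and PIP5K1B took place 29. The first step, phosphatidylinositol to PI4P, is made by 4 kinases. PI4KB, the Golgi enzyme, was at 56.4 ± 2.40 TPM in overexpression cells and 57.5 ± 5.64 TPM in controls. PI4KA, the enzyme that supplies the plasma membrane, was at 43.0 ± 3.51 TPM in overexpression cells and 48.0 ± 3.76 TPM in controls. Their log2 fold changes on the count scale were -0.04 ± 0.04 and -0.08 ± 0.05, with overlapping groups.

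PI4K2A, an enzyme of endosomes and the trans-Golgi network, had 44.4, 41.2, 41.9 and 40.7 CPM in overexpression replicates and 49.1, 45.0, 47.7 and 42.9 CPM in control replicates. Only control replicate 4 fell within the overexpression range, and the log2 fold change of -0.14 ± 0.05 missed the threshold (edgeR adjusted p = 0.193). PI4K2B, its paralog, had 28.9 to 36.6 CPM in overexpression libraries and 26.4 to 37.6 CPM in controls (0.04 ± 0.13). AC104662.2, a gene on the same strand that overlaps PI4K2B, was at 0, 0, 0 and 7.59 CPM in overexpression replicates and at 0, 0, 6.14 and 8.23 CPM in control replicates. The libraries with counts for AC104662.2 were the ones with the lowest PI4K2B, and how reads were divided between them was not tested.

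PI4KA has near-copies among pseudogenes. The pseudogene PI4KAP1, which shares 221 bases without a mismatch, was at 57.1 ± 1.49 CPM in overexpression cells and 50.8 ± 1.91 CPM in controls, and PI4KAP2, which shares 372 bases, was at 60.0 ± 1.95 CPM in overexpression cells and 57.4 ± 2.86 CPM in controls. Reads of the shared stretches could belong to any of the 3 genes, so the PI4KA level is uncertain. ZNF687, which overlaps PI4KB, was at 51.7 ± 4.25 CPM in overexpression cells and 60.3 ± 3.07 CPM in controls.

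The second step, PI4P to PIP2, is made by the PIP5K1 enzymes, and PIP5K1A (ENSG00000143398, chromosome 1, 151197949 to 151249536) dominated it. It stood at 81.3 ± 5.30 TPM in overexpression cells and 87.7 ± 5.46 TPM in controls, and made up 52.1% of the TPM of the 6 phosphatidylinositol phosphate kinases in overexpression cells and 53.6% in controls. In CPM it had 193, 181, 177 and 182 in overexpression replicates and 188, 187, 201 and 186 in control replicates. The groups overlapped, and the log2 fold change was -0.05 ± 0.04. PIPSL, a PIP5K1A-derived gene that shares 129 bases, was at 26.5 ± 1.16 CPM in overexpression cells and 26.9 ± 0.81 CPM in controls.

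PIP5K1C, the isoform that makes most synaptic PIP2, had 38.0 to 41.9 CPM in overexpression libraries and 34.9 to 40.5 CPM in controls (0.06 ± 0.06). PIP5K1B had 2.40 to 3.13 CPM in overexpression libraries and 2.39 to 2.88 CPM in controls (0.12 ± 0.11). FAM122A, a gene inside the PIP5K1B locus, was at 32.1 ± 1.43 CPM in overexpression cells and 30.1 ± 0.78 CPM in controls, far above PIP5K1B itself, so the level of PIP5K1B is uncertain.

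The PIP4K2 enzymes use another precursor, PI5P, and clear it from the cell. PIP4K2C had 36.1, 34.6, 36.5 and 36.9 CPM in overexpression replicates and 34.9, 33.6, 32.6 and 33.8 CPM in control replicates. Overexpression replicate 2 lay within the control range and the other libraries did not mix. The log2 fold change of 0.10 ± 0.04 missed the threshold (edgeR adjusted p = 0.243), and on the TPM scale it was -0.01. PIP4K2A had 44.3 to 46.1 CPM in overexpression libraries and 43.9 to 49.2 CPM in controls (-0.04 ± 0.04). PIP4K2B had 76.9 to 80.0 CPM in overexpression libraries and 75.0 to 77.2 CPM in controls (0.05 ± 0.03).

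Of the 7 tested IP3 receptors and protein kinases C, downstream of PIP2 cleavage, the groups did not overlap for 1, PRKCA (14.3%, against 11.6% of all genes). ITPR3 was the main IP3 receptor, the calcium channel of the endoplasmic reticulum that IP3 opens, with 62.6% of the family's TPM in overexpression cells and 63.6% in controls. The 3 receptors had log2 fold changes of -0.01 ± 0.08 (ITPR1), -0.06 ± 0.09 (ITPR2) and -0.04 ± 0.06 (ITPR3), all with overlapping groups. In CPM, ITPR1 averaged 14.8 ± 1.45 in overexpression libraries and 14.9 ± 0.923 in controls. ITPR2 ran from 17.5 to 21.1 in overexpression libraries and from 18.6 to 23.5 in controls. ITPR3 ran from 48.8 to 57.7 in overexpression libraries and from 51.0 to 56.7 in controls.

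PRKCA (ENSG00000154229, chromosome 17, 66302636 to 66810743), a conventional protein kinase C that needs calcium and diacylglycerol, had 47.6, 44.6, 48.5 and 45.9 CPM in overexpression replicates 1 to 4, against 55.0, 53.4, 49.6 and 50.03 CPM in control replicates 1 to 4. All overexpression libraries were below all control libraries, with control replicate 3 the closest. The level was 89.6% of control (83.3% to 96.4%), a log2 fold change of -0.16 ± 0.05. The adjusted p was 0.125 in edgeR and 0.0235 in DESeq2. The sign was the same under all 16 alternative settings, with the limit given for GNAQ.

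PRKCD, a calcium-independent isoform, was the most abundant of the 4 per length, at 59.6% of their TPM in overexpression cells and 57.2% in controls. Its log2 fold change was 0.03 ± 0.07, and that of PRKCE, another calcium-independent isoform, was -0.02 ± 0.06. PRKCB, a conventional isoform of brain and B cells, was low, at 1.61 to 2.44 CPM in overexpression libraries and 1.96 to 2.65 CPM in controls (-0.22 ± 0.15).

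RGS2, which speeds the shut-off of Gq, had 12.3, 12.3, 12.3 and 11.7 CPM in overexpression replicates and 9.5, 11.3, 12.7 and 13.1 CPM in control replicates. The overexpression values lay inside the control range (0.06 ± 0.09). RGS4, the neuronal member that acts on Gq and Gi, summed to 34 counts in overexpression cells and 37 in controls (ratio 0.960, interval 0.585 to 1.57) and was not tested.

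Calmodulin was the most abundant product of the list, and its 2 listed genes behaved differently between libraries. CALM3 (ENSG00000160014, chromosome 19, 46601074 to 46610793) had 381, 397, 423 and 419 CPM in overexpression replicates 1 to 4, against 389, 409, 355 and 379 CPM in control replicates 1 to 4. The groups overlapped, and the log2 fold change was 0.08 ± 0.05 (edgeR adjusted p = 0.440).

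CALM2 (ENSG00000143933, chromosome 2, 47160082 to 47176601) had 155, 131, 161 and 28.6 CPM in overexpression replicates 1 to 4, against 289, 18.8, 129 and 163 CPM in control replicates 1 to 4. The highest library held 15.3 times the level of the lowest, and both were controls. Overexpression replicate 4 and control replicate 2 stood far below the other libraries. The log2 fold change of -0.33 ± 0.86 had a 95% interval of -2.43 to 1.76, and without control replicate 1 it was 0.20.

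The shares of the CALM2 transcripts differed widely between libraries. CALM2-205, annotated as a retained intron, made up 43.9% of the gene's TPM in overexpression replicate 4 and 49.1% in control replicate 2, against 3.3% to 9.4% in the other overexpression libraries and 1.3% to 2.8% in the other controls. The counts given to it were 1156, 363, 842 and 510 in overexpression replicates and 425, 390, 270 and 400 in control replicates, and were not the lowest of their group in either low library. CALM2-201, a protein-coding transcript, made up 81.9%, 50.6%, 83.9% and 42.9% in overexpression replicates and 89.7%, 17.9%, 31.8% and 47.6% in control replicates. The pseudogene CALM2P2, which shares 143 bases with CALM2, was level, at 11.4 to 15.3 CPM in overexpression libraries and 11.48 to 14.4 CPM in controls. Of the deposited transcript identifiers, 21947 could not be joined to a gene here, and whether any of them took CALM2 reads was not tested.

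On the TPM scale the calmodulin genes summed to 470 ± 41.3 TPM in overexpression cells and 493 ± 154 TPM in controls, the highest sum of the 10 classes. CALM3 made up 73.2% ± 15.4 of it in overexpression cells and 65.5% ± 22.2 in controls.

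**Figure D4:**
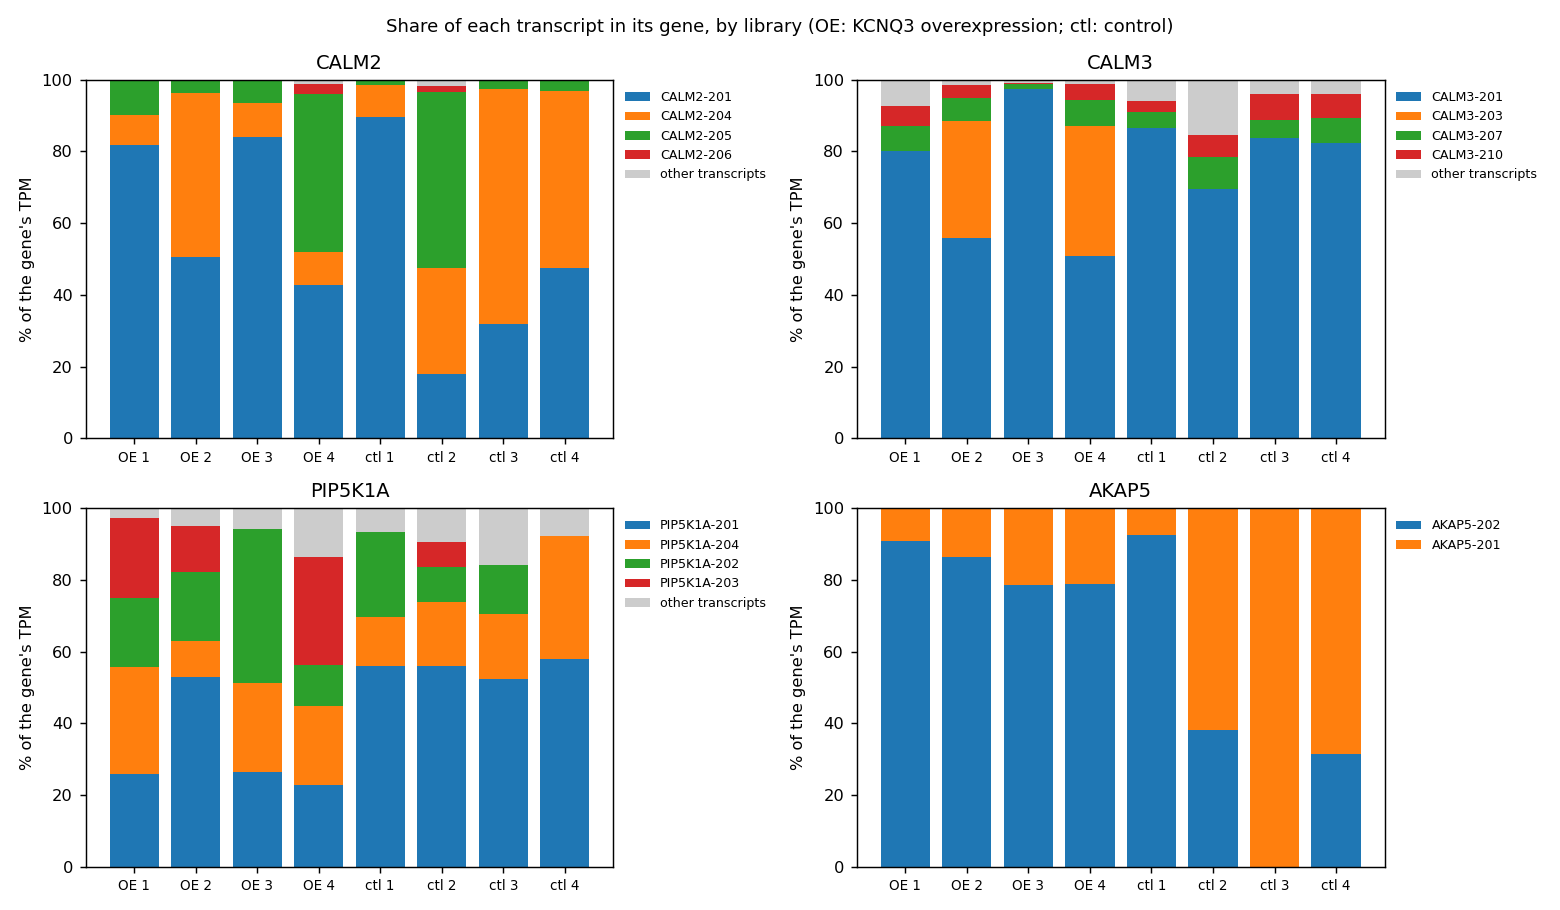
Share of each transcript in its gene's TPM (percent) for CALM2, CALM3, PIP5K1A and AKAP5 in each library, KCNQ3 overexpression (OE) left of control (ctl). The division changes from library to library within both groups; PIP5K1A-201 (blue) is smaller in overexpression replicates 1, 3 and 4 than in every control, and AKAP5-202 (blue) is smaller in control replicates 2 to 4.

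The anchors and partners of the channel were present at modest levels. BACE1 (ENSG00000186318, chromosome 11, 117285207 to 117316259), the beta-secretase that also binds KCNQ channels, had 49.7, 44.1, 48.2 and 49.1 CPM in overexpression replicates 1 to 4, against 55.6, 51.7, 53.5 and 50.5 CPM in control replicates 1 to 4. The groups did not overlap, but overexpression replicate 1 and control replicate 4 were close. The level was 90.4% of control (83.8% to 97.6%), with a log2 fold change of -0.15 ± 0.05 and an adjusted p of 0.156 in edgeR and 0.0482 in DESeq2.

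This direction depended on the scale. In TPM, BACE1 had 14.6, 21.7, 14.4 and 13.1 in overexpression replicates and 16.9, 14.6, 16.2 and 13.95 in control replicates, and its log2 fold change was 0.02. Overexpression replicate 2 stood above all other libraries in TPM and was the lowest of all in CPM, and 56.2% of its BACE1 TPM was given to BACE1-204, which was at 0 in every other library. The antisense gene BACE1-AS was at 7.58, 1.57, 1.57 and 7.34 CPM in overexpression replicates and at 1.78, 1.59, 6.94 and 7.0 CPM in control replicates. The sources used here do not say whether counting used strand, so reads of BACE1 and BACE1-AS may not have been told apart. The same holds for CEP164, which overlaps BACE1 and was at 47.8 ± 2.40 CPM in overexpression cells and 51.9 ± 3.05 CPM in controls, and for RNF214 beside it.

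ANK3, which encodes ankyrin-G, had 40.5, 37.4, 37.6 and 36.6 CPM in overexpression replicates and 42.5, 45.0, 39.2 and 39.7 CPM in control replicates. Overexpression replicate 1 lay within the control range, and the log2 fold change of -0.13 ± 0.05 missed the threshold (edgeR adjusted p = 0.224).

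AKAP5 (ENSG00000179841, chromosome 14, 64465499 to 64474503) had 7.92, 8.56, 8.09 and 8.21 CPM in overexpression replicates and 7.26, 9.27, 2.76 and 7.99 CPM in control replicates. Control replicate 3 stood below all other libraries. The log2 fold change was 0.26 ± 0.33 with all libraries, 0.00 without control replicate 3, and -0.20 in TPM with a pseudocount of 0.1. In that library AKAP5-202 had 0% of the gene's TPM, against 78.7% to 90.8% in overexpression libraries and 31.4% to 92.5% in the other controls. ZBTB25, which overlaps AKAP5 on the opposite strand, was at 24.8 ± 0.52 CPM in overexpression cells and 25.4 ± 1.81 CPM in controls. Whether counting used strand is not stated, so the AKAP5 level is uncertain.

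Transcripts of the listed genes were also tested one by one. Of 245 with a count, 74 were tested and 0 passed with edgeR (0.0127% of all transcripts passed), and 6 had an unadjusted p under 0.05, against 5.58% of all transcripts. PIP5K1A-201 (ENST00000349792) made up 25.9%, 52.9%, 26.3% and 22.9% of the gene's TPM in overexpression replicates 1 to 4, against 55.9%, 55.9%, 52.5% and 57.8% in control replicates 1 to 4. Overexpression replicate 2 lay in the control range and the other overexpression libraries were at about the same lower share. On the count scale its log2 fold change was -0.89 ± 0.26 (edgeR adjusted p = 0.806). Without overexpression replicate 2 it was the 1 listed transcript that passed the threshold. Leaving out the overexpression library that lay in the control range favours such a call.

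In the test of transcript usage, edgeR's diffSpliceDGE called 0 of the 18 listed genes it could test, and 0 had an unadjusted p under 0.05, against 0.383% and 3.47% of all genes tested. In simulated data this usage test recovered 10 of 140 genes and 19 of its 28 calls were false, so it had little reach either way.

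The rest of the pathway was read from 193 further genes, of which 163 were tested. With edgeR's test 0 passed, 48 had an unadjusted p under 0.05 (13 higher and 35 lower in overexpression cells, 29.4% against 19.4% of all genes), and DESeq2 called 19 of the 141 to which it gave an adjusted p (6 higher and 13 lower, 13.5% against 9.9% of all genes). The groups did not overlap for 29 of them (17.8%, against 11.6% of all genes). Their median log2 fold change was -0.04.

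Phosphoinositide phosphatases, which take phosphates off PIP2 and its relatives, had the lowest median of the 12 classes, -0.12 over 17 genes. Under the 16 alternative settings it was between -0.14 and -0.10, with 12 to 15 genes below 0. The median of all genes ran from -0.04 to 0.01 in those settings. They refit the same libraries in which this class was the extreme of 12, so they are not separate evidence. The groups did not overlap for 7 of the 17, all lower in overexpression cells (5.77% of all genes were lower without overlap), among them SYNJ1, INPP5B, INPP5J and OCRL. INPP5J averaged 17.2 ± 0.723 CPM in overexpression cells and 20.4 ± 0.814 CPM in controls (-0.24 ± 0.05, edgeR adjusted p = 0.0699, and 0.0453 without overexpression replicate 1, DESeq2 adjusted p = 0.00611). OCRL, the PIP2 5-phosphatase mutated in Lowe syndrome, averaged 103 ± 3.00 CPM in overexpression cells and 114 ± 4.63 CPM in controls (-0.14 ± 0.04, edgeR adjusted p = 0.119, DESeq2 adjusted p = 0.0104). DESeq2 called 3 of the 16 to which it gave an adjusted p, these 2 and INPP5B (adjusted p = 0.0449). That was 18.8%, all lower, against 9.9% of all genes (5.49% lower). INPP5J and OCRL were named for a small p in these same counts. In TPM the groups overlapped for both. INPP5J averaged 11.7 ± 0.953 TPM in overexpression cells and 12.2 ± 1.27 TPM in controls. OCRL averaged 32.0 ± 1.87 TPM in overexpression cells and 36.4 ± 2.67 TPM in controls.

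Other Gq-coupled receptors and G protein subunits had differences in both directions, and none passed edgeR's test. The groups did not overlap for 8 of the 21 tested subunits (38.1%, against 11.6% of all genes), 3 higher and 5 lower. DESeq2 called 7 of the 19 subunits given an adjusted p (36.8%, against 9.9% of all genes). Of the receptors, 4 of 17 did not overlap (23.5%), 2 higher and 2 lower, and DESeq2 called 1 of 8 (12.5%). P2RY1, an ADP receptor, averaged 27.6 ± 1.24 CPM in overexpression cells and 24.4 ± 1.2 CPM in controls (0.18 ± 0.05, edgeR adjusted p = 0.127). LPAR2, a lysophosphatidic acid receptor, averaged 4.06 ± 0.404 CPM in overexpression cells and 2.98 ± 0.273 CPM in controls (0.44 ± 0.11, adjusted p = 0.0807). GNB3, a beta subunit known from cone photoreceptors, averaged 6.80 ± 0.387 CPM in overexpression cells and 4.99 ± 0.791 CPM in controls (0.44 ± 0.11, adjusted p = 0.0887), and GNG12, a widely expressed gamma subunit, averaged 105 ± 3.64 CPM in overexpression cells and 117 ± 1.84 CPM in controls (-0.16 ± 0.04, adjusted p = 0.0841). In each of these 4 genes the groups did not overlap, and without control replicate 4 GNB3 passed edgeR's test (adjusted p = 0.0415). DESeq2 called GNG12 (adjusted p = 0.000505), GNB3 (adjusted p = 0.0164) and P2RY1 (adjusted p = 0.0453), and gave LPAR2 no adjusted p. All 4 were named for a small p in the same counts.

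Among the remaining classes, PLCL1, a phospholipase-like protein without catalytic activity, averaged 3.56 ± 0.285 CPM in overexpression cells and 4.73 ± 0.317 CPM in controls (-0.41 ± 0.09, edgeR adjusted p = 0.0719). MARCKSL1, a protein kinase C substrate of the MARCKS family that binds PIP2, averaged 261 ± 13.9 CPM in overexpression cells and 222 ± 18.7 CPM in controls (0.24 ± 0.06, adjusted p = 0.0991). AKAP1, an anchor of mitochondria, averaged 135 ± 5.91 CPM in overexpression cells and 123 ± 1.56 CPM in controls (0.14 ± 0.04, adjusted p = 0.121). Its class leaned the other way: 11 of the 14 other anchors tested had log2 fold changes below 0, and their median was -0.10. DESeq2 called PLCL1, MARCKSL1 and AKAP1, with an adjusted p of 0.0355, 0.00775 and 0.0126, in that order. These genes were named for a small p in the same counts, so the DESeq2 calls are not separate evidence. DESeq2 called 9.9% of all genes.

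INPP1, an inositol polyphosphate phosphatase, and CAMK2D, a calmodulin-dependent kinase, did not overlap between groups and were lower in overexpression libraries, with log2 fold changes of -0.24 ± 0.07 and -0.15 ± 0.04 and the same adjusted p of 0.112 in edgeR's test. PRKCH, a further protein kinase C, was at -0.27 ± 0.08 (adjusted p = 0.106). TTC7B, a part of the complex that carries PI4KA to the plasma membrane, averaged 55.1 ± 1.76 CPM in overexpression cells and 60.9 ± 3.02 CPM in controls (-0.15 ± 0.05, adjusted p = 0.133), with overlapping groups. RGS16 and RGS12, which shut off G proteins, were at -0.20 ± 0.08 and -0.16 ± 0.06, also with overlapping groups, and on the TPM scale RGS12 was at 0.057. DESeq2 called INPP1, CAMK2D, PRKCH and TTC7B (adjusted p of 0.0301, 0.0142, 0.0310 and 0.0277, in that order) and did not call RGS16 or RGS12 (0.119 and 0.164). These genes too were named for a small p in the same counts.

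**Figure D5:**
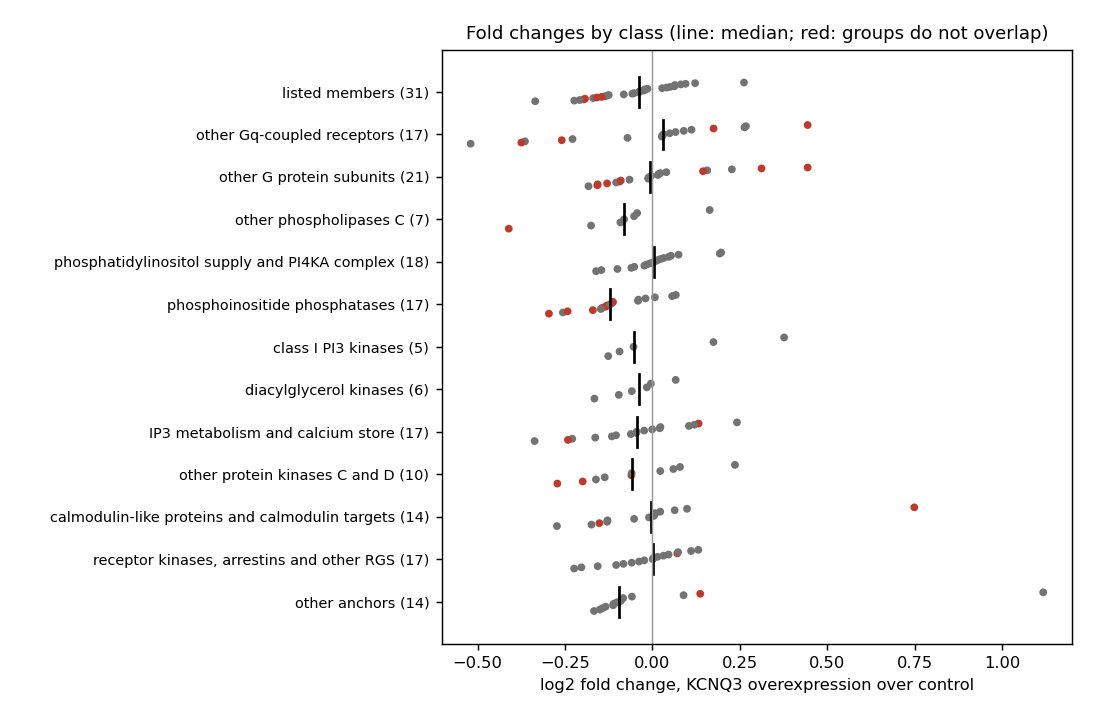
Log2 fold change, KCNQ3 overexpression over control, of the 31 listed genes and of the tested genes in 12 further classes of the pathway (number tested in brackets), with a black line at each median and red points where the CPM of the groups did not overlap. The median of the phosphoinositide phosphatases is the lowest at -0.12, and the others lie within 0.1 of 0.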

How the data were processed

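RNA of 8 samples, 4 KCNQ3 overexpression and 4 control, was measured by sequencing and grouped by the labels. The authors deposited estimated counts (whole numbers) and TPM per Ensembl transcript. The submitters' processing notes name StringTie 2.1.0, HISAT2 2.1.0, SAMtools 1.9, cutadapt 2.8 and FastQC 0.11.5, and the build GRCh38.p13. The sources used here do not give their roles, the annotation release, the read length or strand settings. Reads shared by isoforms, near-copies or overlapping genes were divided by the authors' estimate.

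Deposited counts and TPM were summed per gene through GENCODE release 29, which held 205804 of the 227751 identifiers. The other 21947, 6339 of them with counts and together 1.12% to 1.25% of a library, entered the transcript test only. Chi-square per degree of freedom between the 12 pairs of replicates was 9.72 to 18.6, so no library was a copy of another. Counts limit precision for the lowest genes; intervals of their ratios are exact, at 95%, and with the allowance of 3 counts for a count of 0 they cover counting error only, since reads are not independent molecules.

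Genes and transcripts were tested without covariates by the quasi-likelihood method of edgeR 4.0.16 in R 4.3.3 (TMM scaling, robust fit, filterByExpr with minimum count 10 and minimum total 15). P-values were adjusted by Benjamini-Hochberg over all features, with 0.05 as the threshold; usage was tested with diffSpliceDGE. Levels are CPM with TMM scaling, mean ± SD over 4 libraries. Fold changes divide overexpression by control, and their SE is the one the test implies.

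Alternatives were DESeq2 1.42.0, no scaling, no filter, a mean of at least 50 counts, TPM with pseudocounts of 0.1 and 1 in limma 3.58.1, protein-coding transcripts alone, the replicate number as a block, and leaving out each library. On simulated data over 19280 genes, of genes changed 1.25-fold, 1.5-fold and 2-fold the gene test found 14%, 56% and 84%, with 7 false among 132 calls; DESeq2 recovered 24%, 60% and 80%, with 40 false among 169. The transcript test over 47129 transcripts recovered 0% at 2 times and 33% at 16 times, with 0 false among 25 calls.

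The 39 genes and the 12 further classes were chosen with earlier results of these data known. All 39 are reported. Of the further classes, the genes with the 2 smallest p per class could be named; SYNJ1 and INPP5B are named for not overlapping, with values seen.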

Additional observations from a re-analysis of the deposited data

Results flagged for a closer look

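In 5 of the 63 gene and group combinations looked at, 1 library stood apart from the other 3 of its group by more than Dixon's 95% limit for 4 values; chance flags about 1 in 20. PLCB3 was at 43.0 CPM in overexpression replicate 3, against 36.8 to 37.8 in the other overexpression libraries. PLCD1 was at 7.20 CPM in control replicate 4, against 8.82 to 9.12 in the other controls. PIP5K1A was at 201 CPM in control replicate 3, against 186 to 188 in the other controls. ITPR2 was at 17.5 CPM in overexpression replicate 2, against 20.5 to 21.1 in the other overexpression libraries. RGS2 was at 11.7 CPM in overexpression replicate 4, where the other overexpression libraries were all at 12.3.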

How the results depend on the processing

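The count of listed genes past the threshold was 0 under every alternative run except DESeq2, which called 4, and no listed gene's call was lost, since none was made. Of 490 fold changes of listed genes under the 16 alternatives, 458 kept their sign and side of the threshold, 28 changed sign and 4 newly passed; 17 of the 31 genes never changed sign. The count over all genes was less firm: 58 were called, against 1352 with DESeq2, 35 without scaling, 7 with TPM at either pseudocount, 6 with protein-coding transcripts alone and between 8 (without overexpression replicate 2) and 378 (without overexpression replicate 1) when 1 library was left out. It was 194 without control replicate 4 and 15 to 20 without any other library. Of the other pathway genes, 0 were called, against 19 with DESeq2 and 0 to 2 when 1 library was left out (2 without overexpression replicate 1, 1 without control replicate 4). Of the listed genes' transcripts, 0 were called, against 0 to 1 with a library left out; for usage, 1 gene (CALM3) was called with a mean of at least 50 counts, against 0. Of 270 fold changes of the 17 other pathway genes printed, recomputed as a choice made after seeing the data, 253 kept sign and side, 2 changed sign and 15 newly passed. The cause was not tested.

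With TPM and pseudocounts of 0.1 and 1, log2 fold changes changed sign to 0.18 and 0.054 for PLCB2, -0.20 and -0.16 for AKAP5, 0.0233 and 0.0231 for BACE1, -0.0159 and -0.0154 for PIP5K1C, -0.0187 and -0.0178 for PRKCD, -0.0078 and -0.0075 for PLCB3 and -0.0060 and -0.0058 for PIP4K2C. RGS12, of the other pathway genes, was at 0.057 and 0.052. PLCD1 was at 0.18 with protein-coding transcripts alone. With 1 library left out, the range crossed 0 for CALM2 (-0.71 to 0.20), PLCB2 (-0.27 to 0.015), RGS2 (-0.027 to 0.12), PI4K2B (-0.052 to 0.11), ITPR1 (-0.071 to 0.041), ITPR2 (-0.11 to 0.0044), PRKCD (-0.040 to 0.064) and GNA11 (-0.053 to 0.0079). KCNQ3 was at 12.27 to 13.06 in those fits.

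Overexpression and control samples that share a replicate number did not deviate together (correlation -0.05 to 0.05, with 0 of 4 overexpression libraries correlating best with their own number). At 4 libraries per group, this check cannot exclude a shared batch or culture. With the replicate number as a block, 86 genes were called, none of them a listed gene, and KCNQ3 was at 12.61. Depth limited CHRM1 to CHRM5, GNA14, GNA15 and RGS4, which had too few counts to test.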
